A study of Homo sapiens with 4 samples.

Results

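Axon guidance ligands and receptors are the secreted and cell-surface proteins that steer growing nerve fibres and many migrating cells. The genes described here were taken by name from a table comparing vincristine-resistant RD cells with their parental line: all semaphorins, plexins of classes A to D, ephrins of classes A and B and UNC5 netrin receptors, with named slits, robos, netrins, neuropilins, DCC and neogenin. The rule found 52 of 18375 genes, after 2 antisense names were dropped. It used no measured value, but it was chosen with earlier results of these data known. UNC50, which encodes a Golgi membrane protein, and UNC5CL, which encodes a death-domain protein without a netrin-binding part, came in by the prefix of their names alone, so 50 are guidance genes. SLIT1, SLIT3, ROBO2, NTNG1 and DCC are in the rule but have no row among the 18375 genes, so they could not be analysed here. The same holds for SEMA5A and SEMA5B, whose names begin with a prefix of the rule. RD is a human rhabdomyosarcoma cell line, labelled fusion-negative and wild type in both groups. There were 2 libraries of vincristine-resistant cells and 2 of untreated parental cells. Vincristine is a microtubule drug that arrests cells in mitosis. Selection began at 1 to 1.5 nM vincristine and the dose was raised by 10 to 20% at a time over 9 to 12 months, until the half-maximal inhibitory concentration had risen at least 100-fold. The labels do not say whether the resistant line is a clone or a pool, whether it was in drug at harvest, or whether replicates were separate cultures, so every p-value rests on the spread of these 4 libraries alone, which may be technical. In bulk RNA, fewer cells of a type and less RNA per cell cannot be told apart.

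Semaphorins bind plexins on the receiving cell, and the secreted class 3 members mostly need a neuropilin as co-receptor. Slits act on robos, netrins on DCC, neogenin and the UNC5 receptors, and ephrins on Eph receptors, with signalling into the ephrin-bearing cell as well. The receptors change the actin and microtubule skeleton through small GTPases. In muscle, class 3 semaphorins, netrin with neogenin and ephrins act in the growth, fusion and innervation of fibres.

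Levels are normalized counts, that is, gene counts divided by a size factor of their library. The 4 libraries held 58861281 to 67690557 recovered reads over the genes of the table, and edgeR estimated a coefficient of variation of 2.38% between replicates. The replicates of the groups were not equally close. Their mean squared deviation per gene was 4.00 times that of counting alone for the resistant libraries and 1.61 times for the parental libraries. Skeletal muscle markers were abundant: 13 of 15 were measured, 12 were higher in resistant cells and 1, MYOD1, did not pass, and their summed level was 223138 and 228806 in resistant cells against 119391 and 119142 in parental cells. Of the neuron markers 7 of 12 were measured (2 higher, 4 lower, 1 not passed), with sums of 19589 and 19708 in resistant cells against 9395 and 9321 in parental cells. Their sum followed NEFM, a neurofilament gene, at 14070.4 and 14281 in resistant cells against 2819 and 2936 in parental cells. Sums were 2441 and 2503 in resistant against 923 and 973 in parental cells for 3 of 8 endothelial markers (2 higher, 1 lower), and 14956 and 15110 against 5178 and 5134 for 7 of 8 epithelial markers (3 higher, 1 lower), in the same order of groups. The epithelial sum followed KRT18, at 13747 and 14020 in resistant against 4446 and 4408 in parental cells. TEK, at 1729 and 1690 in resistant against 188 and 210 in parental cells, held most of the endothelial sum in resistant cells. CLDN5 was the endothelial marker that fell, at 252 and 269 in resistant against 591 and 647 in parental cells. For 7 of 8 fibroblast markers (4 higher, 1 lower) the sums were 527884 and 522962 in resistant against 722544 and 716627 in parental cells. The lower sum was that of COL3A1, a collagen gene, at 447551 and 441561 in resistant against 673638 and 668027 in parental cells, and the other 6 summed to 80333 and 81402 in resistant against 48906 and 48601 in parental cells. Sums for 4 of 8 glial markers (2 higher, none lower) were 789 and 788 in resistant against 402 and 419.5 in parental cells, and for 3 of 8 blood markers (1 higher, 1 lower) 70.3 and 78.3 against 59.0 and 65.6, in that order of groups. No marker measured was at 0 in any library, and the part of these markers in the results below was not tested.

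Of the 52 genes, all of which passed the filter on low values, 19 were higher and 24 lower in resistant cells, and 9 did not pass (limma, Benjamini-Hochberg adjusted p below 0.05 over 18330 tested genes). The called share was 82.7%, where 66.9% of all tested genes were called, 32.7% as higher and 34.2% as lower. Calls that reached 2-fold numbered 8 higher and 6 lower members, 26.9% of the members, and for 15.5% of all tested genes. The median log2 fold change was -0.07 for the members and 0.0043 for all tested genes, and the median of its size, sign left out, was 0.52 and 0.36. The median level was 1047 normalized counts for the members and 885 for all tested genes. The libraries of the groups did not overlap for 46 of the 52 members, nor for 82.1% of all tested genes. Requiring a change above 1.2-fold ended the calls of SEMA3A, SEMA3B, SEMA4C, SEMA6B, SEMA7A, PLXNA3, PLXNB1, ROBO1, ROBO3, EFNA2, EFNA5 and UNC50, and fixing the dispersion at 0.01 ended those of the same genes other than ROBO3. Among 31 ligands, 13 rose and 14 fell. Among 19 receptors, 6 rose and 9 fell. Every family with more than 1 measured gene held called genes in both directions.

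**Figure D1:**
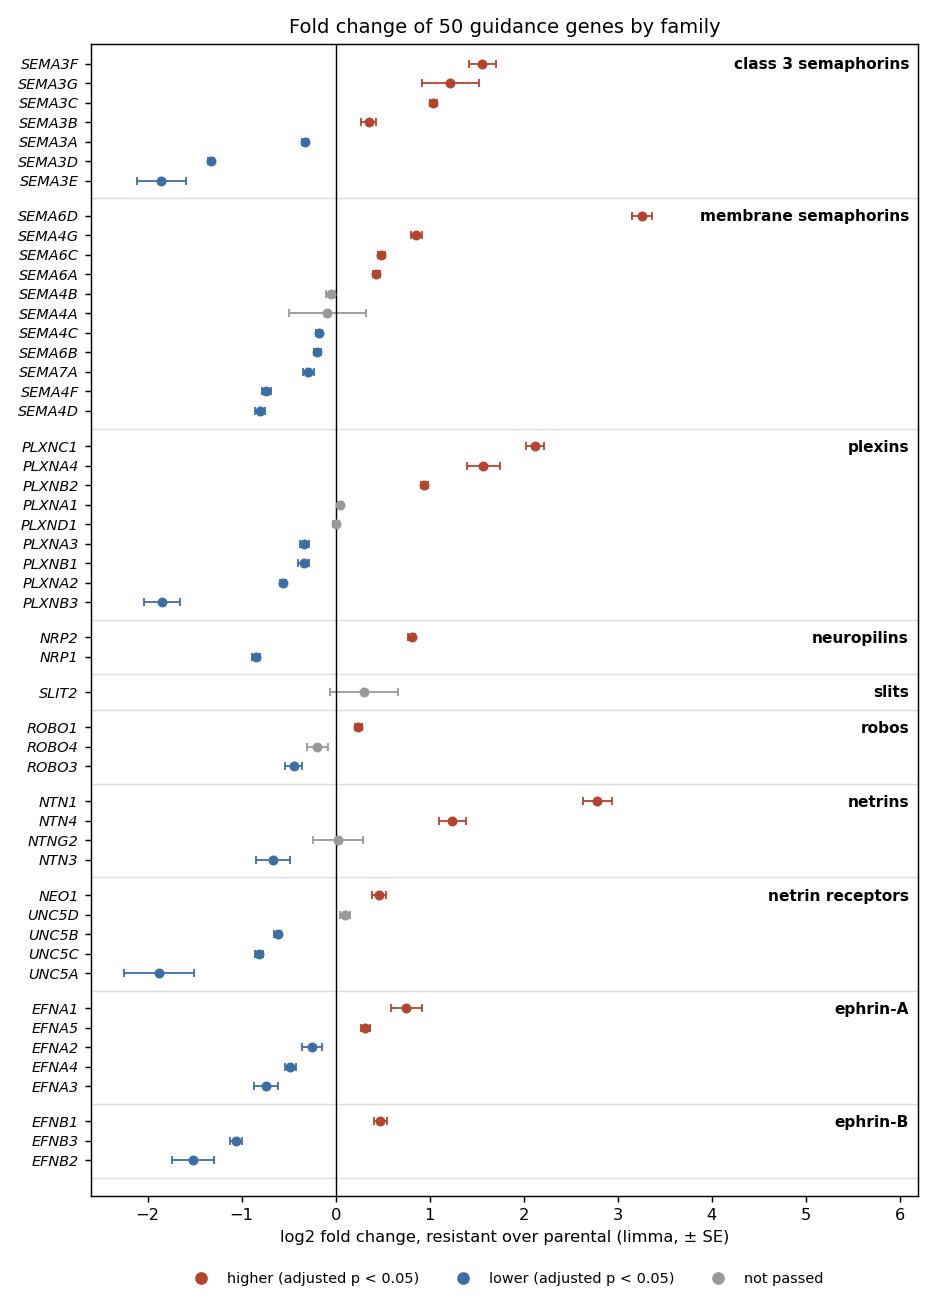
Log2 fold change of resistant over parental cells (limma, bars are the SE, 2 libraries in each group) for the 50 guidance genes by family, coloured by call at an adjusted p below 0.05. Each family with more than 1 gene has members on both sides of 0, from SEMA6D at 3.26 to UNC5A at -1.88.

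Promoter windows are shown for SEMA6D and PLXNC1, the ligand and the receptor with the largest rises among genes that matched, and for SEMA3C and SEMA3D, class 3 semaphorins of the same stretch of chromosome 7 that changed in opposite directions. The sequences are from RefSeq on GRCh38.p14 and run from 250 bases before to 50 bases after the most upstream annotated start, 5′ to 3′ on the gene's strand. Capitals mark the motifs CACGTG (the E-box bound by MYC), CAGCTG (an E-box bound by myogenic factors), and GGGCGG (a GC box). They also mark the core promoter box TATAAA. All were searched on both strands.
SEMA6D, chr15:47183839-47184138, plus strand: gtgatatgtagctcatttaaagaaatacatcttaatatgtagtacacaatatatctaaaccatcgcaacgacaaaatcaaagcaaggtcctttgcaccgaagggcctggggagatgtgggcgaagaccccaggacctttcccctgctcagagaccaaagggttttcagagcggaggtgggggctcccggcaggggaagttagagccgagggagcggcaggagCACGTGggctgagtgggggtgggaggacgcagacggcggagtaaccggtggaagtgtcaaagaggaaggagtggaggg
PLXNC1, chr12:94148327-94148626, plus strand: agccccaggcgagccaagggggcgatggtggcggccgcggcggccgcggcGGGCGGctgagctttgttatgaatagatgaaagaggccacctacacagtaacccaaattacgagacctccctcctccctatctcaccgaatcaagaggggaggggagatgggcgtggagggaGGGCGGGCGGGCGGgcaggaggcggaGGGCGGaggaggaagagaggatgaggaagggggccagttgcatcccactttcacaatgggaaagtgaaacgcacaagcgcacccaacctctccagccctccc
SEMA3C, chr7:80922340-80922639, minus strand: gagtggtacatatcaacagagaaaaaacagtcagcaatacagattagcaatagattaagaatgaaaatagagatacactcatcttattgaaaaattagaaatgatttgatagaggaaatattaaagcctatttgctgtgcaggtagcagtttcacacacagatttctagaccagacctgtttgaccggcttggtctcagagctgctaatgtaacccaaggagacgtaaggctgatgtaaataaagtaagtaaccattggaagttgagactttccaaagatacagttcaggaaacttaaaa
SEMA3D, chr7:85187007-85187306, minus strand: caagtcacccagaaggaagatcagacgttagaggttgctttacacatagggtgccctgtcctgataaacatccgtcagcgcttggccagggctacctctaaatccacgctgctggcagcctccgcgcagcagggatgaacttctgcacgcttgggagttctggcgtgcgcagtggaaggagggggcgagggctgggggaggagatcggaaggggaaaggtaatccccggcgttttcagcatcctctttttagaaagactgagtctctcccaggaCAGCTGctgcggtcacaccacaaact

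The SEMA6D window holds 1 CACGTG, the SEMA3D window 1 CAGCTG, the PLXNC1 window 5 GC boxes, 3 of which overlap, and the SEMA3C window none of the 4 motifs. Of 42 members with an entry, 7 held CAGCTG (16.7%), where 17.7% of 27305 windows, 1 per gene symbol, did. CACGTG was in 3 (7.14%) against 7.41% of all windows, and TATAAA in 1, that of EFNB2 (2.38%), against 12.0%. A GC box was in 33 (78.6%) against 44.5%, and the members' windows had a median GC content of 68.0% against 58.3% for all windows. The 27305 windows were not limited to genes measured in these cells, as the members were. These shares therefore compare unlike sets, and no difference between them can be read as a trait of guidance genes. Among members called higher, 12 of 17 windows held a GC box, and among those called lower, 15 of 18. These are matches of letters, and the start used in these cells may be another one. NRP1, NTN1, NTN3, NTNG2, SEMA3A, SEMA6A, SEMA6B, UNC5B, UNC5D and EFNB3 had no entry.

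The secreted class 3 semaphorins split, with 4 of 7 higher and 3 lower. SEMA3C, which acts in heart outflow and vessel development, had 6298 and 5813 normalized counts in resistant libraries, against 2933 and 2954 in parental libraries. Its mean was 6055 ± 343 against 2943 ± 14.3 (SD, n = 2 per group, as in all such values), and the log2 fold change was 1.04 (SE 0.04, limma adjusted p = 3.12e-18). The groups did not overlap, and the spread within each was far below the gap. SEMA3F, a repulsive ligand of neuropilin-2, had 232 and 257 in resistant libraries against 87.0 and 77.5 in parental libraries, a log2 fold change of 1.56 (SE 0.14, limma adjusted p = 2.42e-10). SEMA3D, which acts in vessel and heart development, had 6138 and 5992 in resistant libraries against 15244 and 15238 in parental libraries. Its mean of 6065 ± 103 was 2.51 times lower than the parental mean of 15241 ± 3.91 (log2 fold change -1.33, SE 0.03, limma adjusted p = 6.35e-23). SEMA3A, a growth-cone-collapsing ligand of neuropilin-1, had 16190.2 and 15572 in resistant libraries against 19774 and 19973 in parental libraries, a smaller fall of 0.32 (SE 0.03, limma adjusted p = 2.43e-10) on the log2 scale. It remained the most abundant class 3 member per exon length, at 1695 normalized counts per kilobase of exon in resistant cells and 2121 in parental cells.

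SEMA3E, a ligand that binds plexin D1 without a neuropilin, had 19.5 and 18.1 normalized counts in resistant libraries against 68.6 and 72.6 in parental libraries (log2 fold change -1.85, SE 0.26). SEMA3G had 47.6 and 39.1 in resistant libraries against 15.5 and 20.9 in parental libraries (log2 fold change 1.22, SE 0.30), and SEMA3B, a ligand lost in some lung cancers, 617 and 689 against 535 and 488 (log2 fold change 0.35, SE 0.08). SEMA3B, SEMA3F and SEMA3G lie within 2.29 Mb on chromosome 3 and all rose, with neighbour medians of 0.02, 0.12 and 0.05, where a neighbour median is that of the log2 fold changes of the 20 nearest tested genes. PLXNB1, on the same chromosome, fell. On chromosome 7, SEMA3A, SEMA3C, SEMA3D and SEMA3E lie within 4.44 Mb, from 80742538 to 85186855 on GRCh38, and SEMA3C rose while the other 3 fell.

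**Figure D2:**
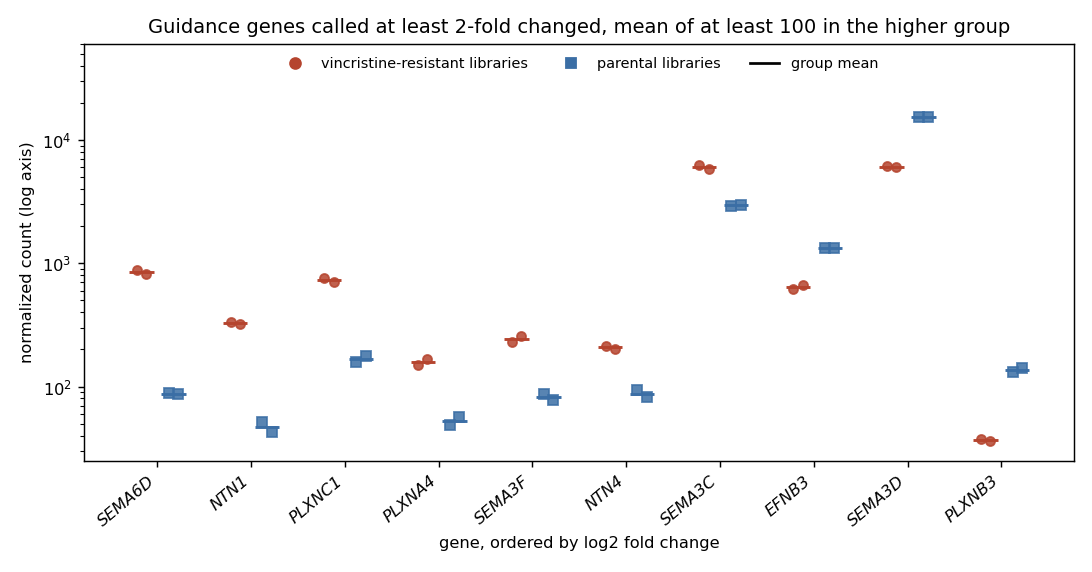
Normalized counts on a log axis in each resistant (circles) and parental (squares) library, with group means as lines, for the 10 guidance genes that were called, changed 2-fold or more and averaged 100 or more in 1 group. The genes were chosen for their change, and they run from SEMA6D (875 and 819.9 against 88.9 and 86.5) to PLXNB3 (37.9 and 36.3 against 131 and 140.2).

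Among 11 semaphorins held at the membrane, 4 rose, 5 fell and 2 did not pass. SEMA6D, a transmembrane ligand of plexin A1 in the developing heart, had the largest fold change of the members. It had 875 and 819.9 normalized counts in resistant libraries against 88.9 and 86.5 in parental libraries, a 9.66-fold difference (log2 fold change 3.26, SE 0.10, limma adjusted p = 3.91e-20). The other class 6 genes moved less. SEMA6C had 5422 and 5859 in resistant libraries against 4058 and 3986 in parental libraries (log2 fold change 0.49, SE 0.04), and SEMA6A, which acts on plexins A2 and A4 in the cerebellum and hindbrain, 3472 and 3493 against 2636 and 2522 (log2 fold change 0.43, SE 0.04). SEMA6B, the most abundant ligand per exon length, had 11393 and 12561 in resistant libraries against 13868 and 13537 in parental libraries (log2 fold change -0.20, SE 0.04, limma adjusted p = 3.00e-05). That fall was smaller than the median fall of -0.53 among its 20 nearest tested genes on chromosome 19, and with this median subtracted SEMA6B stood at 0.33.

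Of 6 class 4 semaphorins, many of which bind B-type plexins, 3 were lower and 1 higher. SEMA4D, the ligand of plexin B1 also known as CD100, had 875 and 884 normalized counts in resistant libraries against 1568 and 1505 in parental libraries (log2 fold change -0.80, SE 0.06, limma adjusted p = 9.20e-13). SEMA4F had 1332 and 1312 in resistant libraries against 2231 and 2185 in parental libraries (log2 fold change -0.74, SE 0.05), and stood at -0.40 with its neighbour median of -0.34 subtracted. The fall of SEMA4C, a plexin B2 ligand found in muscle precursors, was small, with 9657 and 10077 in resistant libraries against 11257 and 11001 in parental libraries (log2 fold change -0.17, SE 0.03), and it stood at 0.16 with the median of its neighbours subtracted. SEMA4G rose, with 1394 and 1379 in resistant libraries against 776 and 753 in parental libraries (log2 fold change 0.86, SE 0.06). Its neighbours on chromosome 10 had a median of 0.75, and with this subtracted it stood at 0.11 and no longer passed (limma adjusted p = 0.107, which takes the median as known). On the opposite strand MRPL43 covers 22.3% of the exonic bases of SEMA4G, so its value is uncertain. SEMA4B had 1137 and 1148 in resistant libraries against 1175 and 1188 in parental libraries, and SEMA4A 10.8 and 18.1 against 17.4 and 12.9, and neither passed (limma adjusted p = 0.461 and 0.861). SEMA4B passed as higher, at 0.30, with its neighbour median subtracted. SEMA7A, the GPI-anchored ligand of plexin C1 and of integrins, had 994 and 1122 in resistant libraries against 1329 and 1257 in parental libraries (log2 fold change -0.29, SE 0.06).

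Of the 9 plexins, 3 rose, 4 fell and 2 did not pass. PLXNC1, the receptor of semaphorin 7A, had 757 and 706 normalized counts in resistant libraries against 159 and 178 in parental libraries. Its mean of 732 ± 36.1 was 4.35 times the parental mean of 168 ± 13.7 (log2 fold change 2.12, SE 0.10, limma adjusted p = 8.90e-17). So the receptor rose where its ligand SEMA7A fell, although the call of SEMA7A was lost when a change above 1.2-fold was required. PLXNB2, the plexin of class 4 semaphorins in neural precursors and epithelia, had 20379 and 22124 in resistant libraries against 11000.4 and 11073 in parental libraries. At 21251 ± 1234 it was 1.93 times the parental 11037 ± 51.2 (log2 fold change 0.94, SE 0.03, limma adjusted p = 4.41e-19), and it was the most abundant member per exon length in resistant cells, at 2928 normalized counts per kilobase of exon against 1521 in parental cells, where it ranked 5 of 52. PLXNA4, a partner of neuropilin-1 in sensory axons, had 148 and 167 in resistant libraries against 48.3 and 56.7 in parental libraries (log2 fold change 1.57, SE 0.18).

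PLXNB3, a receptor of semaphorin 5A, fell to 37.9 and 36.3 normalized counts in resistant libraries, against 131 and 140.2 in parental libraries (log2 fold change -1.85, SE 0.19, limma adjusted p = 2.90e-09). SRPK3, a muscle kinase gene on the same strand, covers 20.4% of the exonic bases of PLXNB3, so the counts of PLXNB3 are uncertain. PLXNA2 was lower at 6314 and 6705 in resistant libraries against 9707 and 9504 in parental libraries (log2 fold change -0.56, SE 0.03), and stood at -0.88 with its neighbour median subtracted. PLXNA3 (log2 fold change -0.33, SE 0.05) and PLXNB1 (-0.34, SE 0.06), the receptor of semaphorin 4D, also fell, and PLXNA3 stood at -0.12 with its neighbour median subtracted (limma adjusted p = 0.0424). The abundant PLXND1 and PLXNA1 did not pass. PLXND1, a receptor in vessels, had 12207 and 13043 in resistant libraries against 12704 and 12456 in parental libraries (log2 fold change 0.0045, SE 0.03, limma adjusted p = 0.914). PLXNA1 had 10909.6 and 11667 in resistant libraries against 11038 and 10806 in parental libraries (log2 fold change 0.05, SE 0.03, limma adjusted p = 0.225), and it passed as higher without resistant replicate 1 (0.10, limma adjusted p = 0.000377), with all libraries scaled to the same total (0.08, limma adjusted p = 0.0329) and with its neighbour median subtracted (0.25, limma adjusted p = 3.06e-07). With its own subtracted, PLXND1 passed as lower, at -0.18.

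The neuropilins, co-receptors of class 3 semaphorins and of vascular endothelial growth factor, went in opposite directions. NRP2 had 9623 and 9713 normalized counts in resistant libraries against 5498 and 5553 in parental libraries, a log2 fold change of 0.81 (SE 0.03, limma adjusted p = 8.86e-18). NRP1 had 1956 and 1990.2 in resistant libraries against 3492 and 3592 in parental libraries, a log2 fold change of -0.84 (SE 0.04, limma adjusted p = 8.77e-16). The fall of NRP1 was close to that of its surroundings. Its 20 nearest tested genes on chromosome 10 had a median of -0.76, and with this subtracted NRP1 stood at -0.08 and did not pass (limma adjusted p = 0.101). NRP2, with neighbours at a median of 0.20, stood at 0.61 and passed. Per exon length, NRP2 was at 696 and NRP1 at 171 normalized counts per kilobase of exon in resistant cells, against 398 and 307 in parental cells.

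**Figure D3:**
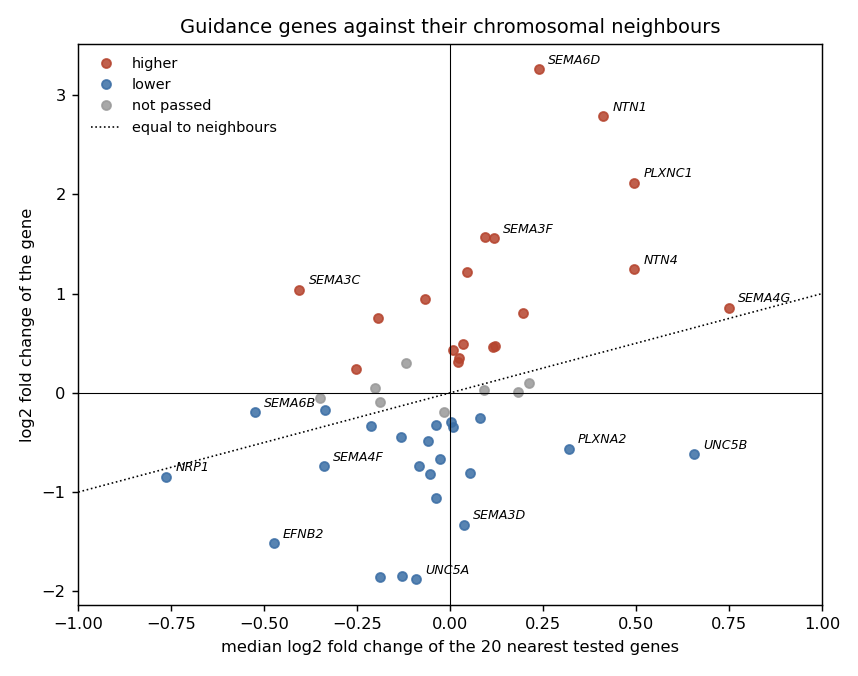
Log2 fold change of each of the 50 guidance genes (vertical) against the median log2 fold change of its 20 nearest tested genes, 10 on either side along the chromosome (horizontal), coloured by call. NRP1 and SEMA4G lie near the dotted line of equal values, UNC5B moved against neighbours at 0.66, and SEMA6D and SEMA3D lie far from it.

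Neighbours shifted by at least 0.3 in either direction surrounded 13 of the 52 members, with medians from -0.76 to 0.75. The share among all tested genes was not computed, so whether this count is unusual is not known. UNC5B on chromosome 10 fell in a stretch whose median was 0.66. EFNB2 on chromosome 13 fell by more than its neighbours, whose median was -0.47. NTN1, NTN4 and PLXNC1 rose with neighbours at 0.41, 0.49 and 0.49 and stood at 2.37, 0.75 and 1.62 with these subtracted.

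Slit and robo genes had no called change of 2-fold. SLIT2, the measured slit, had 17.3 and 29.6 normalized counts in resistant libraries against 22.2 and 14.9 in parental libraries, the groups overlapped and it did not pass (limma adjusted p = 0.483). ROBO1, its main receptor, had 7461 and 7617 in resistant libraries against 6412 and 6332 in parental libraries (log2 fold change 0.24, SE 0.03, limma adjusted p = 3.96e-07). ROBO3, the robo of axons that cross the midline, had 337 and 373 in resistant libraries against 482 and 484 in parental libraries (log2 fold change -0.45, SE 0.09). Its neighbour ROBO4, an endothelial robo 33.1 kb away at most, had 214 and 198 in resistant libraries against 242 and 229.6 in parental libraries and did not pass (limma adjusted p = 0.140), and 10.6% of its exonic bases are shared with a gene on the opposite strand. With its neighbour median subtracted, ROBO1 stood at 0.50.

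Among 4 netrins, 2 rose, 1 fell and 1 did not pass. NTN1, the netrin of the floor plate, had 335 and 322 normalized counts in resistant libraries against 51.2 and 42.7 in parental libraries. The mean was 329 ± 9.74 against 47.0 ± 6.01, a 6.99-fold difference (log2 fold change 2.78, SE 0.15, limma adjusted p = 5.56e-15). NTN4, a netrin of basement membranes that binds laminin, had 214 and 202 in resistant libraries against 93.8 and 81.5 in parental libraries (log2 fold change 1.24, SE 0.15, limma adjusted p = 2.50e-08). In both genes every resistant library lay above every parental one. NTN3 was low and fell, at 63.8 and 70.6 in resistant libraries against 111 and 103 in parental libraries (log2 fold change -0.67, SE 0.18). NTNG2, a membrane-anchored netrin-G, had 39.0 and 51.5 in resistant libraries against 34.8 and 55.7 in parental libraries and did not pass (limma adjusted p = 0.941).

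Of 5 netrin receptors, 1 rose, 3 fell and 1 did not pass. UNC5B, the most abundant of them per exon length, had 3374 and 3566 normalized counts in resistant libraries against 5398 and 5235 in parental libraries (log2 fold change -0.62, SE 0.04, limma adjusted p = 1.18e-13), and stood at -1.27 with the rise of its neighbours subtracted. UNC5C, which like UNC5B can start cell death when netrin is missing, had 1804 and 1802 in resistant libraries against 3155 and 3196 in parental libraries (log2 fold change -0.82, SE 0.04). UNC5A was near the floor, at 7.57 and 8.59 in resistant libraries against 31.9 and 32.8 in parental libraries (log2 fold change -1.88, SE 0.37). NEO1, which encodes neogenin, a netrin receptor that promotes myotube formation in mice, rose to 697 and 731 in resistant libraries, against 484 and 554 in parental libraries (log2 fold change 0.46, SE 0.08, limma adjusted p = 8.12e-06). UNC5D had 1432 and 1548 in resistant libraries against 1375 and 1412 in parental libraries and did not pass (limma adjusted p = 0.120), although the groups did not overlap. It passed as higher without resistant replicate 1 (0.15, limma adjusted p = 0.00896) and with all libraries scaled to the same total (0.13, limma adjusted p = 0.0359).

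The ephrins, ligands bound to the membrane of the presenting cell, all passed. Ephrin-B genes encode transmembrane ligands that also signal backward. EFNB3 had 614 and 662 normalized counts in resistant libraries against 1332 and 1322 in parental libraries (log2 fold change -1.06, SE 0.06, limma adjusted p = 3.00e-14). EFNB2, a marker of arterial endothelium, had 29.2 and 27.7 in resistant libraries against 84.1 and 82.5 in parental libraries (log2 fold change -1.52, SE 0.23), and a gene on the opposite strand covers 26.2% of its exonic bases. EFNB1, the most abundant ephrin-B per exon length in resistant cells, rose, at 912 and 1051 in resistant libraries against 693 and 715 in parental libraries (log2 fold change 0.48, SE 0.07, limma adjusted p = 1.07e-06). In parental cells EFNB3 was the more abundant, with 412 normalized counts per kilobase of exon against 212 for EFNB1, and in resistant cells EFNB1 was, with 296 against 198 for EFNB3.

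Ephrin-A genes encode GPI-anchored ligands, and 2 of 5 rose and 3 fell. EFNA1, EFNA3 and EFNA4 lie within 71.1 kb on chromosome 1 and did not move together. EFNA1 had 127 and 135 normalized counts in resistant libraries against 84.1 and 70.6 in parental libraries (log2 fold change 0.75, SE 0.17, limma adjusted p = 0.000295). EFNA3 had 154 and 189 in resistant libraries against 302 and 270.4 in parental libraries (log2 fold change -0.74, SE 0.12). EFNA4, the most abundant ephrin-A per exon length, had 839.7 and 861 in resistant libraries against 1159 and 1217 in parental libraries (log2 fold change -0.48, SE 0.06). A readthrough gene on the same strand covers 44.7% of the exonic bases of EFNA3 and 15.0% of those of EFNA4, so these counts are uncertain. EFNA5, a ligand that patterns axon maps, had 2118 and 2117 in resistant libraries against 1751 and 1656 in parental libraries (log2 fold change 0.31, SE 0.05). EFNA2 had 253 and 276 in resistant libraries against 341 and 291 in parental libraries (log2 fold change -0.25, SE 0.11, limma adjusted p = 0.0385). Its call was also lost without resistant replicate 1 (limma adjusted p = 0.148), without parental replicate 1 (limma adjusted p = 0.408), with DESeq2 (DESeq2 adjusted p = 0.172) and with all libraries scaled to the same total (limma adjusted p = 0.0685).

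**Figure D4:**
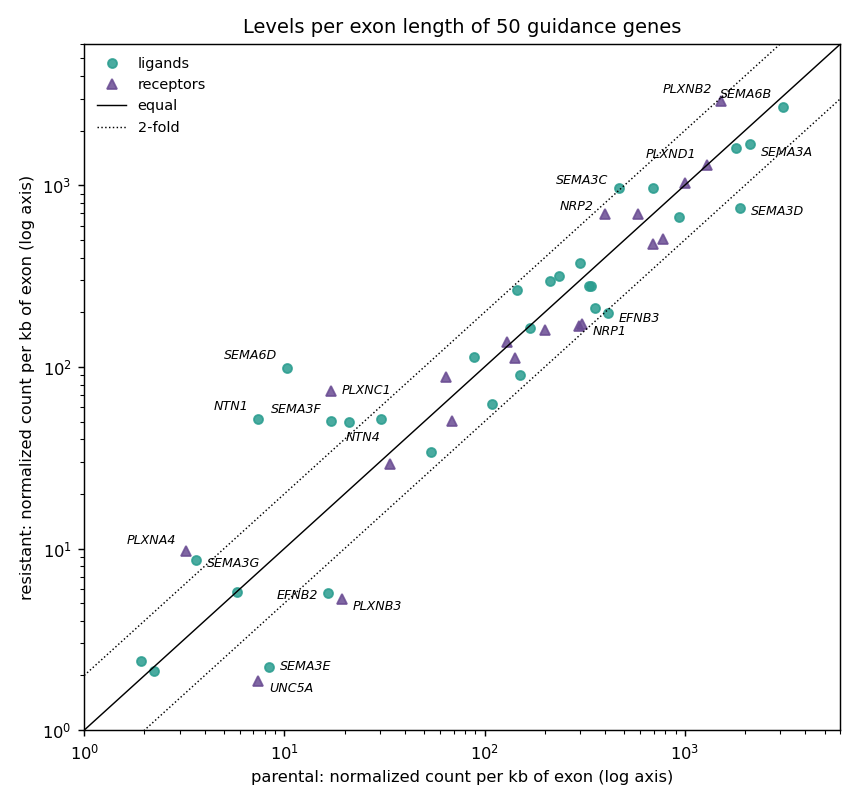
Mean normalized count per kilobase of annotated exon in resistant cells (vertical, log axis) against parental cells (horizontal, log axis) for the 50 guidance genes, circles for ligands and triangles for receptors, with lines at equal level and at 2-fold. SEMA6D, at 99.1 against 10.3, lies farthest from the line of equal level, PLXNB2 is highest in resistant cells and SEMA6B in parental cells.

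Set beside each other by known binding partners, levels did not move in 1 pattern. For semaphorin 3F and its co-receptor, SEMA3F and NRP2 both rose, and for semaphorin 3A and its co-receptor, SEMA3A and NRP1 both fell. The call of SEMA3A was lost when a change above 1.2-fold was required and when the dispersion was fixed at 0.01. NRP1 stood at -0.08 and did not pass with its neighbour median subtracted. PLXNA4, a partner of neuropilin-1, rose. For netrin-1, the ligand gene and NEO1 rose while UNC5A, UNC5B and UNC5C fell and UNC5D did not pass. For semaphorin 4D, ligand and receptor gene PLXNB1 both fell. SEMA4C fell while its receptor gene PLXNB2 rose. For semaphorin 7A, ligand and receptor gene moved apart. The calls of PLXNB1, SEMA4C and SEMA7A were lost when a change above 1.2-fold was required and when the dispersion was fixed at 0.01. SEMA4C stood at 0.16 and passed as higher with its neighbour median subtracted. For SLIT2 the ligand was near the floor of the table while ROBO1 was among the abundant genes. UNC50 (1881 and 1843 normalized counts in resistant libraries against 2204 and 2202 in parental libraries) fell by 0.24 (SE 0.05) on the log2 scale, a call lost with its neighbour median subtracted (-0.07, limma adjusted p = 0.171), and UNC5CL (15.1 and 31.5 against 19.3 and 18.9, in that order of groups) did not pass.

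Beyond the ligands and receptors of the rule, 123 other genes of these pathways were measured, in 6 lists that overlap in no gene, with 33 higher, 73 lower and 17 not called (the median was -0.21 on the log2 scale, against 0.0043 for all tested genes). Among all tested genes 32.7% were higher and 34.2% lower. The lists were chosen with earlier results of these data known, so no difference from these shares can be read as a pathway trait. Of 10 measured Eph receptors, the partners of the ephrins, there was 1 that rose and 6 that fell, with 3 not called (median -0.24). EPHA3, a receptor of ephrin-A5, had 328 and 362 normalized counts in resistant libraries against 2925 and 2917 in parental libraries (log2 fold change -3.08, SE 0.06), EPHA5 (-3.54, SE 0.28) and EPHB4, the receptor of ephrin-B2 (-0.41, SE 0.03), were lower too. The receptor gene that rose was EPHA1, at 168 and 167 in resistant libraries against 47.4 and 36.8 in parental libraries (1.98, SE 0.18).

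Of 29 semaphorin and plexin effectors, 6 rose and 17 fell (median -0.22), with RND3, a GTPase that binds plexin B2 (-1.41, SE 0.03), FARP1, an exchange factor (-1.27, SE 0.04), and CRMP1, which carries semaphorin 3A signals to the skeleton (-0.90, SE 0.03), lower, and CDK5R1 (1.02, SE 0.06), DPYSL3 (1.01, SE 0.11) and RAP1B (0.19, SE 0.03) higher. Of 19 slit and robo effectors, 4 rose and 15 fell (median -0.26), with the actin polymerase gene VASP (-1.06, SE 0.04), the kinase gene ABL2 (-0.95, SE 0.03) and MYO9B (-0.58, SE 0.03) lower and PAK3 (2.00, SE 0.20), SRGAP3 (1.04, SE 0.16) and ENAH (0.29, SE 0.03) higher. Requiring a change above 1.2-fold left 2 higher and 9 lower among semaphorin and plexin effectors, and 2 and 6 among slit and robo effectors. Fixing the dispersion at 0.01 gave the same counts. Of 18 netrin receptor effectors, 6 rose and 10 fell (median -0.14). That order turned, with 5 higher and 4 lower when a change above 1.2-fold was required, 6 and 4 with the dispersion fixed at 0.01, and 9 and 6 with neighbour medians subtracted. ABLIM1, an actin-binding protein, rose by 3.74 (SE 0.05), and TRIM9, a ubiquitin ligase that binds DCC, had a log2 fold change of -3.69 (SE 0.09). In this list DOCK1 (0.72, SE 0.03) and APPL1 (0.70, SE 0.04) also rose, and SRC (-0.94, SE 0.04) and DAPK1 (-0.66, SE 0.03) fell.

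Of 16 Eph and ephrin effectors, 7 were higher and 6 lower (median -0.05). The counts were 6 and 7 without resistant replicate 2, and 5 and 8 with neighbour medians subtracted. CHN2, a chimaerin that turns off Rac (3.49, SE 0.10), KALRN (1.61, SE 0.09) and the ephrin-shedding protease gene ADAM10 (0.45, SE 0.04) rose, and VAV3 (-2.11, SE 0.08), SDCBP (-1.10, SE 0.03) and SIPA1L1 (-0.74, SE 0.04) fell. Of 31 co-receptors and other cues, 9 rose and 19 fell (median -0.44). FLT1, a receptor of vascular endothelial growth factor that pairs with neuropilin-1, had 1753 and 1687 normalized counts in resistant libraries against 125 and 132 in parental libraries (3.73, SE 0.08), and ITGA1 (1.93, SE 0.05) and RGMA, a ligand of neogenin (1.87, SE 0.08), rose as well. FLRT3, which binds UNC5 receptors, fell to 164 and 169.9 in resistant libraries, against 1898 and 1839 in parental libraries (-3.47, SE 0.08), and SDC3 (-1.26, SE 0.03) and NRCAM (-1.36, SE 0.04) were lower. With the median of their chromosomal neighbours subtracted, 8 of the list genes named moved by more than 1.5 times. RAP1B stood at -0.32 and passed there in that direction, and EPHB4 stood at -0.08, FARP1 at -0.46, VASP at -0.60, MYO9B at -0.17, PAK3 at 1.30, DOCK1 at 0.27 and ADAM10 at 0.21, all still called. The calls of RAP1B and ENAH were lost when a change above 1.2-fold was required and when the dispersion was fixed at 0.01.

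**Figure D5:**
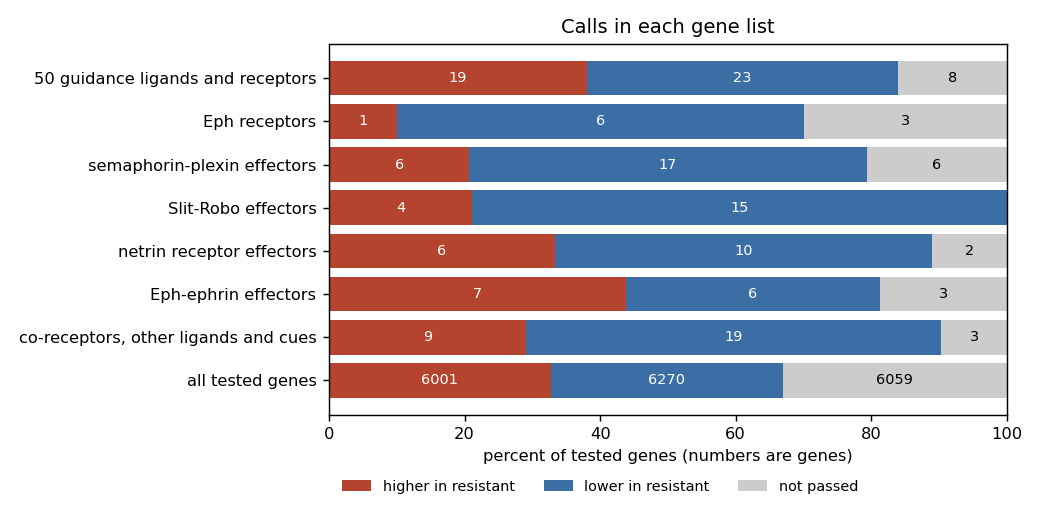
Percent of tested genes called higher, called lower or not passed (limma, adjusted p below 0.05) among the 50 guidance ligands and receptors, 6 lists of other pathway genes and all tested genes, with gene numbers in the bars. The guidance genes have 19 higher and 23 lower, Eph receptors 1 and 6, and all tested genes 32.7% higher and 34.2% lower.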

How the data were processed

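Poly(A)-selected RNA was sequenced in 4 libraries. The submitters' processing notes name GRCh38 and the programs STAR 2.5.2b, featureCounts (Subread 1.5.2), DESeq2 and bcl2fastq 2.17. They give neither gene annotation nor strandedness, so it is not known whether reads of overlapping genes on opposite strands were told apart. The library columns deposited by the authors are a signal, gene counts divided by 1 size factor per library (0.924 to 1.05): 100% of the values below 1000 reads were whole multiples of 1 step within 0.01. The step of parental replicate 2 lies near 1, and its reads were recovered in the same way, although such a step cannot be told from unscaled values by its size alone, so count tests serve only as alternatives. The authors' log2 fold change and p-value columns, deposited beside them, were not used for calls. The smallest mean of a gene in the table was 9.98.

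The filter asked for 10 or more in 2 or more libraries and left 18330 of 18375 genes. Limma 3.58.1 (trend) was fitted by group to log2 values after adding a pseudocount of 1, with Benjamini-Hochberg adjustment over all tested genes and a threshold of 0.05, so fold changes can understate changes of low genes. Alternatives used edgeR 4.0.16 and DESeq2 1.42.0 on recovered reads, in R 4.3.3. The fits were checked on simulated data in which every library had the same dispersion, unlike the unequally close replicates here. Positions and exon lengths are from GENCODE 29, which places all 52 members and 96.9% of the genes. The members, lists and rules were chosen with earlier results of these data known. A further gene list is not reported here. Values are given for members called with at least 2-fold change and a mean of at least 100, for the most abundant per family, for members of at least 1000 that did not pass, and beyond that rule for the others. Up to 3 genes per list and direction with the smallest adjusted p are named. Figures were drawn with matplotlib 3.10.9.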

Additional observations from a re-analysis of the deposited data

How the results depend on the processing

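The results were repeated under 15 alternatives. Of 43 called members, 29 kept direction and call under every alternative that gave a value. When a change above 1.2-fold was required, 16 members were higher and 15 lower, with 3380 higher and 3414 lower among all genes and 20 higher and 42 lower among the other pathway genes. With the dispersion fixed at 0.01 in edgeR, 16 members were higher and 16 lower, with 4063 higher and 3880 lower among all genes and 22 higher and 43 lower among the other pathway genes. Both settings ask for larger changes by construction. With the neighbour median subtracted, SEMA4B (0.30), SEMA4C (0.16), SEMA6B (0.33), PLXND1 (-0.18) and RAP1B (-0.32) had the opposite sign and passed, with p-values that take the median as known, and the cause was not tested. With 1 library left out, members called higher numbered 19 to 21 and lower 23 to 24, the lone library of its group being assumed to vary like the others. The replicate block changed no member's call (19 higher, 24 lower). Deviations of same-numbered libraries correlated at -0.0040 over 13130 genes, so the numbers are not taken as pairs. Genes of few reads, such as UNC5A, SLIT2 and SEMA4A, are limited by depth.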
